A study of Bos taurus with 36 samples.

Results

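RAB GTPases, SNAREs and exocyst subunits move and fuse the vesicles of the secretory pathway, and 70 of their genes were followed in the mammary gland of lactating cows. They were all the genes whose single symbol in the array annotation began with RAB and a digit, STX and a digit, VAMP, SNAP2 or EXOC, and they made up 70 of the 9155 genes with a single symbol. They comprised 39 RABs, 5 effectors or regulators named for a RAB, 18 SNAREs and 8 exocyst genes. Each gene was represented by its probe set with the highest mean signal over the 36 arrays, and 21 of the 70 genes had 2 to 4 probe sets to choose from.

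The tissue came from 6 multiparous Holstein cows in a unilateral design. In each cow the right side of the udder was milked 4× and the left side 2× for days 1 to 21 of lactation, after which both sides were milked 2×. Biopsies of both sides were taken on day 21, during the treatment, and on days 23 and 40, after it had stopped, which gave 6 groups of 6 arrays: 2× and 4× glands on day 21, 2× and former 4× glands on day 23, and 2× and former 4× glands on day 40. The biopsies of day 23 came from fore glands and all others from rear glands, which leaves day 23 and gland position impossible to separate, and udder side and milking frequency cannot be told apart on any day. A difference below is always 4× minus 2× on the log2 scale within a cow, averaged over 6 cows. The SE given with such a difference comes from limma, with a spread per gene shared by the 18 pairs of the 3 days. It is not the SE of the 6 differences of that day alone.

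RABs are small GTPases that mark a membrane in their GTP-bound state and recruit the effectors that carry, tether or dock it. SNAREs of the vesicle, the VAMPs, pair with syntaxins and SNAP25-family proteins of the target membrane and drive fusion, and the exocyst is a complex that tethers Golgi-derived and recycling vesicles to the plasma membrane before fusion. In the lactating alveolar cell, caseins and lactose leave in secretory vesicles that fuse with the apical membrane, while milk fat leaves by budding.

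All arrays gave signal from milk-secreting epithelium, with a mean log2 signal over 10 marker genes of that cell type between 13.32 and 13.96. One array stood apart, that of the 2× gland of cow 1 on day 21. Of the 70 genes, 21 had their lowest and 17 their highest signal of all 36 arrays there, against 9 extremes on the array with the next most and a median of 3 per array. The same held for 39.4% of all genes with a single symbol. This array also had the lowest mean epithelial signal, 13.32, where the other 35 arrays lay between 13.77 and 13.96, and a leukocyte marker signal of 7.21, within the range of 6.60 to 7.58 of the other 35. Its part in the results of day 21 was measured by leaving the day 21 pair of cow 1 out. Both values are given below for many but not all genes.

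Probe sets bind with different strengths, so signals are compared within a gene and not between genes. The brightest of the 70 probe sets were those for RAB1A, with a mean log2 signal of 12.48, RAB3IP at 10.61, RAB11B at 10.57, RAB18 at 10.47 and RAB11A at 10.12. RAB1A moves cargo from the ER to the Golgi, RAB18 acts at the ER and lipid droplets, RAB11A and RAB11B mark recycling endosomes, and RAB3IP is an exchange factor that activates RAB8. The dimmest were those for RAB19 at 3.47, RAB40B at 3.50, RAB9B at 3.60, SNAP25 at 3.61 and RAB3C at 4.35. These genes, together with RAB33B and RAB3A, made up the 7 with a mean under 5, near the background of the array, and no level is read from them. SNAP25 and RAB3C are best known from neurons, and SNAP23, the widely expressed relative of SNAP25, had a mean log2 signal of 9.64.

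On day 21, 7 of the 70 genes were lower and 10 were higher in the 4× gland at an unadjusted p under 0.05 by limma, where the same test called 9.61% of all genes lower and 8.29% higher. The genes called lower were VAMP5, RAB34, RAB7B, STX7, RAB11FIP2, EXOC5 and RAB19. Those called higher were VAMP7, RAB1A, SNAP23, RAB3GAP1, RAB2A, RAB29, RAB11A, RAB3IP, RAB18 and STX10. The median difference of the 70 genes was 0.05, against 0.0075 for all genes. No gene of the 70 passed an adjusted p of 0.05 in limma with Benjamini-Hochberg adjustment over 24016 probe sets, for which the smallest adjusted p was 0.181, and a linear model without moderation, with 6 lower calls and 8 higher calls before adjustment, passed 0 as well. Without the day 21 pair of cow 1, 3 genes were lower and 2 higher, against 2.96% and 2.58% of all genes. These 5 were VAMP5, RAB34, RAB7B, RAB1A and VAMP7, which also kept an unadjusted p under 0.05 when any 1 of the 6 cows was left out. With the spread of each day estimated separately, the day 21 calls of EXOC5, RAB11A, RAB18, RAB19, RAB2A, RAB3IP, SNAP23 and STX10 were lost. Of the 21 genes with several probe sets, 3 were called on day 21, and their second probe set had the same sign for 2 and the opposite sign for SNAP23. For 5 others (EXOC2, RAB27A, RAB7A, RAB8B and STX6) the second probe set alone had an unadjusted p under 0.05. Its sign was opposite to that of the one used for EXOC2 (0.18 against -0.04) and RAB8B (0.25 against -0.05). It was the same for RAB27A, RAB7A and STX6. By direction alone, 4 genes were lower and 8 higher in all 6 cows, against 3.09% and 3.74% of all genes. The 4 were EXOC7, RAB27B, RAB34 and RAB7B, the 8 were EXOC3L1, RAB1A, RAB2A, RAB35, RAB3D, RAB3GAP1, SNAP23 and VAMP7, and each had a two-sided exact permutation p of 0.03125, the smallest that 6 pairs allow.

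**Figure D1:**
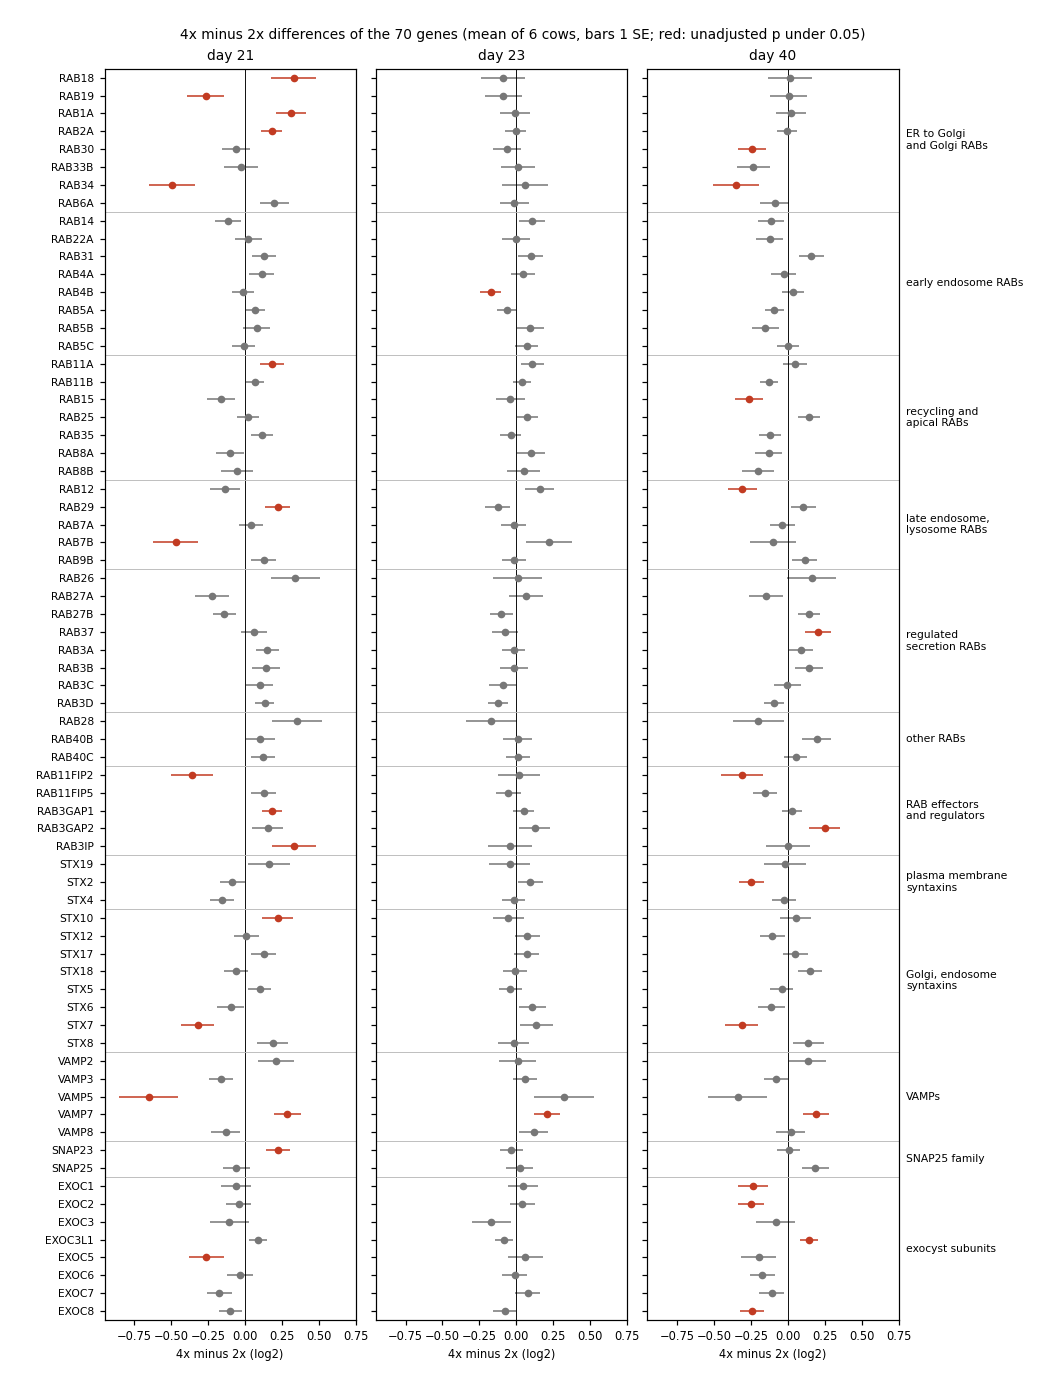
Differences (4× minus 2×, log2) of the 70 genes on days 21, 23 and 40, grouped by role. Points are means of 6 cows, bars 1 SE from limma, and red marks an unadjusted p under 0.05. On day 21, 17 genes are red, on day 23 only RAB4B and VAMP7, and on day 40, 14 genes, among them EXOC1, EXOC2 and EXOC8 on the lower side.

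Among the RABs of the ER and Golgi, RAB1A was higher in the 4× gland of all 6 cows on day 21. Its log2 signal was 11.45, 12.49, 12.34, 12.56, 12.55 and 12.30 in the 2× glands of cows 1 to 6 and 12.59, 12.81, 12.42, 12.64, 12.69 and 12.42 in their 4× glands. The 2× gland of cow 1 was far below the rest, and the other 5 cows had small differences in 1 direction, with groups that overlapped. The mean difference of 0.31 ± 0.10 (limma SE, n = 6; 1.24-fold; limma unadjusted p = 0.00589) became 0.15 ± 0.07 without the pair of cow 1 (unadjusted p = 0.0466).

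RAB2A, which works between the Golgi and the ER, was likewise higher in all 6 cows, by 0.18 ± 0.07 (n = 6; limma unadjusted p = 0.0158), and had a difference of 0.12 without the pair of cow 1 (unadjusted p = 0.105). RAB18 had a difference of 0.33 ± 0.15 that was 1.53 in cow 1 and between -0.16 and 0.24 in the others, and it was 0.09 without that pair (limma unadjusted p = 0.400). RAB34, which sits at the Golgi and has roles in lysosome position and cilium formation, was lower in the 4× gland of all 6 cows. Its 2× glands read 9.29, 8.01, 8.33, 7.74, 7.85 and 8.09 in cows 1 to 6 and its 4× glands 7.70, 7.80, 7.84, 7.45, 7.77 and 7.79. The 4× glands lay close together and the 2× glands spread upward from them. The difference was -0.49 ± 0.16 (limma unadjusted p = 0.00494), and -0.27 ± 0.13 without the pair of cow 1 (unadjusted p = 0.0424).

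RAB7B, which returns cargo from late endosomes to the Golgi, was lower in the 4× gland by 0.47 ± 0.15 (n = 6; limma unadjusted p = 0.00603), a difference of -0.30 ± 0.14 without the pair of cow 1 (unadjusted p = 0.0476). All 6 cows were lower, and the 2× glands of cows 1 and 3, at 7.60 and 7.81, stood above those of the other 4, which lay between 6.36 and 6.60. The 4× glands lay between 6.16 and 6.83. RAB29, a RAB of the Golgi and lysosome, was 0.22 ± 0.09 higher in the 4× gland (limma unadjusted p = 0.0163), with 4 of 6 cows higher, and 0.18 higher without the pair of cow 1 (unadjusted p = 0.0624). The late endosome RAB itself, RAB7A, had a difference of 0.04 ± 0.08 with the probe set used and of 0.25 with its second one, which had a mean signal of 8.72 (unadjusted p = 0.0276).

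Of the 8 early endosome RABs, among them RAB4A, RAB5A, RAB5B and RAB14, 0 were called on day 21, with differences between -0.11 and 0.13. Of the 7 RABs of recycling and apical transport, RAB11A alone was called, at 0.19 ± 0.08 (limma unadjusted p = 0.0322). Without the pair of cow 1 it stood at 0.09 (unadjusted p = 0.237). RAB25, the epithelial relative of RAB11A, had a difference of 0.02, and RAB8A, which serves delivery to the plasma membrane, one of -0.10.

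The 8 RABs of regulated secretion, RAB3A, RAB3B, RAB3C, RAB3D, RAB26, RAB27A, RAB27B and RAB37, attach to secretory granules, and 0 of them were called on day 21. A second probe set of RAB27A, with a mean signal of 5.42 against 5.49 for the one used, had a difference of -0.39 (limma unadjusted p = 0.0240). RAB3D, an exocrine granule RAB, was higher in all 6 cows by 0.13 ± 0.06 (limma unadjusted p = 0.0511), and RAB27B was lower in all 6 by 0.14 ± 0.08 (unadjusted p = 0.0799). RAB26 had a difference of 0.34 ± 0.17 (unadjusted p = 0.0535) that was carried by cow 1, whose 2× gland read 6.13 while those of the other 5 cows read 7.67 to 8.26, and without that pair the difference was 0.09.

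Among the regulators of RABs, RAB3GAP1, the catalytic subunit of the complex that inactivates RAB3 and activates RAB18, was higher in all 6 cows by 0.18 ± 0.07 (limma unadjusted p = 0.0152; 0.13 without the pair of cow 1, unadjusted p = 0.0774). RAB3IP had a difference of 0.33 ± 0.15 that was 1.64 in cow 1 and at most 0.21 in the others, and was 0.07 without the pair of cow 1. RAB11FIP2, an adaptor that links RAB11 vesicles to a myosin motor, was lower by 0.36 ± 0.14 (unadjusted p = 0.0203), a difference of -0.30 without that pair (unadjusted p = 0.0672). Its second probe set had a difference of -0.08.

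The 5 VAMPs gave differences in both directions on day 21. VAMP7, the vesicle SNARE of late endosomes and secretory lysosomes, was higher in the 4× gland of all 6 cows. Its 2× glands read 6.48, 7.09, 6.86, 7.24, 6.93 and 6.81 in cows 1 to 6 and its 4× glands 7.08, 7.25, 6.99, 7.36, 7.38 and 7.06. The groups overlapped, since the highest 2× gland, of cow 4, lay above 3 of the 4× glands. The difference was 0.29 ± 0.09 (n = 6; 1.22-fold; limma unadjusted p = 0.00442), and 0.22 ± 0.09 without the pair of cow 1 (unadjusted p = 0.0261).

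VAMP5, a VAMP first known from muscle, had the difference of greatest size among the 70 genes, -0.65 ± 0.20 (1.57-fold; limma unadjusted p = 0.00384). Its 2× glands read 8.96, 7.05, 9.08, 7.01, 7.11 and 7.55 in cows 1 to 6 and its 4× glands 7.32, 6.83, 7.49, 6.74, 7.15 and 7.33. The 2× glands of cows 1 and 3 were high and gave most of the mean, the groups overlapped, and cow 5 had a difference of 0.04. Without the pair of cow 1 the difference was -0.45 ± 0.19 (unadjusted p = 0.0287). VAMP3, a recycling endosome SNARE, had a difference of -0.16 (unadjusted p = 0.0540), VAMP8, a SNARE of exocrine granules, one of -0.13, and VAMP2 one of 0.21, none of them called.

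SNAP23, a target SNARE of the plasma membrane, was higher in the 4× gland of all 6 cows by 0.22 ± 0.08 (limma unadjusted p = 0.00919). Cow 1 had a difference of 0.79 and the other 5 lay between 0.02 and 0.20, and without its pair the mean was 0.11 ± 0.06 (unadjusted p = 0.0883). The second probe set of SNAP23, with a mean signal of 6.11, had a difference of -0.025 ± 0.10. STX7, a late endosome syntaxin, was lower in 5 of 6 cows by 0.32 ± 0.11 (unadjusted p = 0.00901), a difference of -0.22 without the pair of cow 1 (unadjusted p = 0.0602). The syntaxins of the plasma membrane, STX2, STX4 and STX19, had differences of -0.09, -0.16 and 0.16 and were not called.

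Of the 8 exocyst genes, 7 had a difference below 0 on day 21, where 47.8% of all genes did, with a median of -0.08. Without the pair of cow 1, EXOC2 at 0.0045 and EXOC6 at 0.04 lay above 0. Other probe sets had differences of 0.05, -0.32 and -0.14 for EXOC1, 0.18 and 0.14 for EXOC2 and 0.15 for EXOC6. Those of EXOC1 and EXOC6 had mean signals under 5. EXOC5 was called at -0.26 ± 0.12 (limma unadjusted p = 0.0391). Without the pair of cow 1 it was -0.13 (unadjusted p = 0.247), and EXOC7, lower in all 6 cows by 0.17 ± 0.08 (unadjusted p = 0.0527), was at -0.06.

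**Figure D2:**
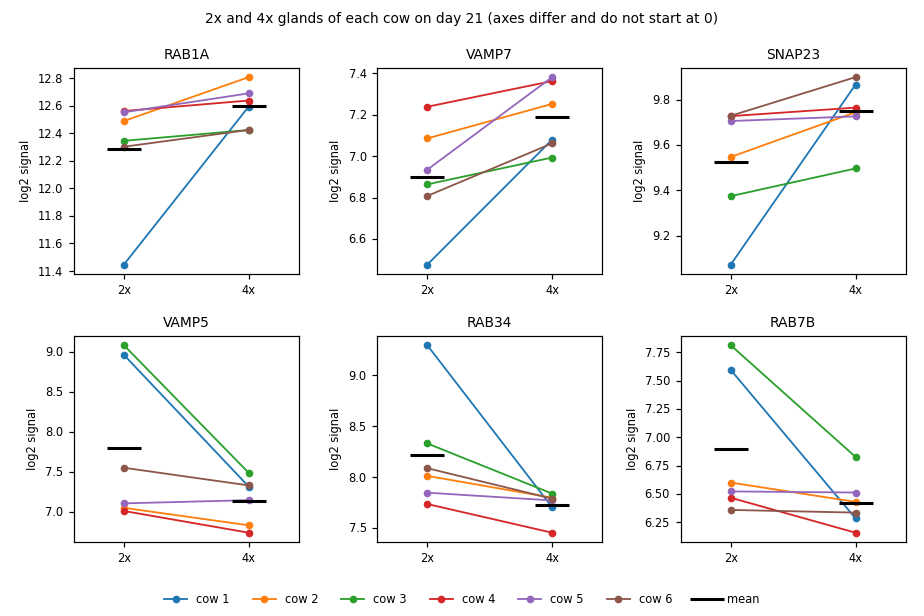
Log2 signal (y axes, each with its own range and not starting at 0) of 6 genes in the 2× and 4× gland of each cow on day 21, with lines joining the glands of 1 cow and black bars for the means. RAB1A, VAMP7 and SNAP23 were higher in the 4× gland of all 6 cows and RAB34 and RAB7B lower in all 6, and the 2× gland of cow 1 lies at or near the edge of every panel.

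**Figure D3:**
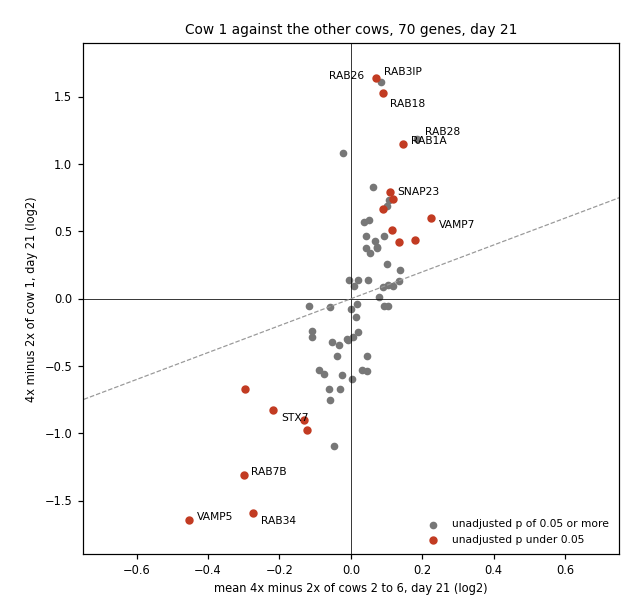
Difference (4× minus 2×, log2) of each of the 70 genes on day 21 in cow 1 (y axis) against the mean of cows 2 to 6 (x axis), with a dashed line where both would be equal and red for an unadjusted p under 0.05 over all 6 cows. Cow 1 spans -1.64 (VAMP5) to 1.64 (RAB3IP), while the means of the other cows stay between -0.45 (VAMP5) and 0.22 (VAMP7).

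Markers of cell types were counted in the day 21 comparison as well, where 9.61% of all genes were lower and 8.29% higher. Of 14 leukocyte genes, 6 were lower and 1 was higher in the 4× gland at an unadjusted p under 0.05, and 4 were lower without the pair of cow 1. The mean log2 signal over the list ranged from 6.89 to 7.23 in the 2× glands and from 6.73 to 7.07 in the 4× glands. Within cows it was lower in the 4× gland of all 6, by differences of -0.38 in cow 1 and -0.24 to -0.0024 in the others. CD48, the marker with the smallest p, had a difference of -0.46 ± 0.14 (limma unadjusted p = 0.0034). Of 9 myoepithelial genes, 1 was lower, KRT5 at -0.48 ± 0.19 (-0.28 without the pair of cow 1). The list ranged from 9.27 to 9.94 in the 2× glands and from 8.88 to 9.71 in the 4× glands. Of 10 genes of milk-secreting epithelium 2 were higher, and 0 without the pair of cow 1. The list ranged from 13.32 to 13.91 in the 2× glands and from 13.77 to 13.91 in the 4× glands. Of 7 fibroblast genes 1 was lower, of 7 endothelial genes 2 were higher and of 3 adipocyte genes 0 were called. Without the pair of cow 1, 0 myoepithelial, fibroblast or adipocyte genes were called and 1 endothelial gene was higher. Of all genes 2.96% were then lower and 2.58% higher. In bulk tissue, fewer cells of a type and less RNA per cell cannot be told apart, and the part of these cell types in the differences of VAMP5, RAB34, RAB7B and STX7 was not tested.

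On day 23, after both sides had gone back to 2×, 1 of the 70 genes was lower and 1 higher in the former 4× gland at an unadjusted p under 0.05, against 1.07% and 1.41% of all genes. RAB4B, a RAB of rapid recycling from early endosomes, was lower by 0.17 ± 0.07 (n = 6; limma unadjusted p = 0.0248), with 4 of 6 cows lower. VAMP7 was higher by 0.21 ± 0.09 (unadjusted p = 0.0317), with 4 of 6 cows higher. Neither kept an unadjusted p under 0.05 when cow 1, 5 or 6 was left out, and RAB4B was also lost without cow 3 and VAMP7 without cow 2, with p-values up to 0.0914 and 0.151. The second probe set of EXOC2, with a mean signal of 6.11, had a difference of -0.22 (limma unadjusted p = 0.0129). The one used had 0.04. The smallest adjusted p of the 70 genes by limma with Benjamini-Hochberg adjustment was 0.9997. Their median difference was 0.0086 and that of all genes 0.0038. EXOC3L1 was lower in all 6 cows, by 0.09, the only gene of the 70 with 1 sign throughout (1.08% of all genes were lower and 1.19% higher in all 6). RAB3D, which had been higher in all 6 cows on day 21, had a difference of -0.12 ± 0.06 on day 23 (unadjusted p = 0.0685), with 1 of 6 cows higher.

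The difference itself moved between days 21 and 23 at an unadjusted p under 0.05 for 11 of the 70 genes, down for 5 (5.42% of all genes) and up for 6 (7.01%). VAMP5 had the change of greatest size, 0.97 ± 0.28 (limma unadjusted p = 0.00251), from -0.65 on day 21 to 0.32 on day 23, where cow 1 had 1.21 and the other 5 cows -0.09 to 0.39. Without cow 1 on both days the change was 0.60 (unadjusted p = 0.0270). RAB7B moved by 0.69, which was 0.41 without cow 1 on both days, and STX7 by 0.45, both from below 0 to above it, while RAB29 moved by -0.35 and RAB3D by -0.26. Those 5 genes kept an unadjusted p under 0.05 without the day 21 pair of cow 1, which left 2 changes down and 3 up (2.81% and 3.35% of all genes), and the change of STX7 was lost when cow 1 was left out on both days (0.28, unadjusted p = 0.0753). No change passed the adjusted p in limma, the smallest being 0.386, and the model without moderation, with 5 down and 5 up at an unadjusted p under 0.05, passed 0.

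On day 40, 10 of the 70 genes were lower and 4 higher in the former 4× gland at an unadjusted p under 0.05, against 9.51% and 8.90% of all genes. The genes called lower were EXOC1, EXOC2 and EXOC8 of the exocyst, the syntaxins STX2 and STX7, the RABs RAB12, RAB15, RAB30 and RAB34, and RAB11FIP2. Those called higher were RAB3GAP2, EXOC3L1, RAB37 and VAMP7. The median difference of the 70 genes was -0.03, with 40 of them below 0, and that of all genes was -0.0044. With arrays scaled to 6 reference genes the higher calls numbered 0 for the 70 genes, and 9.32% of all genes were lower and 3.24% higher. No gene of the 70 passed the adjusted p in limma with Benjamini-Hochberg adjustment, the smallest being 0.179, nor in the model without moderation, with 9 lower calls and 4 higher calls before adjustment. RAB12, EXOC8, STX2 and EXOC2 kept an unadjusted p under 0.05 when any 1 cow was left out. In all 6 cows RAB11B, RAB12, RAB15, RAB35 and STX2 were lower and RAB31 was higher, 5 and 1 of the 70 genes against 4.26% and 3.55% of all genes.

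Of the 8 exocyst genes, 7 had a difference below 0 on day 40, where 51.2% of all genes did, 3 of them were called lower (9.51% of all genes), and their median was -0.18. This count holds for the brightest probe set of each gene: the other probe set of EXOC6, near background with a mean signal of 3.50, had a difference of 0.30 ± 0.08 (limma unadjusted p = 0.00151). EXOC8 was lower in 5 of 6 cows. Its 2× glands read 7.92, 7.66, 7.79, 7.67, 7.91 and 7.74 in cows 1 to 6 and its former 4× glands 7.47, 7.70, 7.47, 7.47, 7.56 and 7.56. The groups overlapped only through cow 2, whose former 4× gland lay above its 2× gland and above that of cow 4, and the difference was -0.24 ± 0.08 (n = 6; 1.18-fold; limma unadjusted p = 0.00602). EXOC2 was lower in 5 of 6 cows by 0.25 ± 0.09 (unadjusted p = 0.00907), and again cow 2 was the exception. Its 2× glands lay between 8.46 and 8.83 and its former 4× glands between 8.17 and 8.65. A second probe set of EXOC2, with a mean signal of 6.11 against 8.48 for the one used, had a difference of 0.10 ± 0.08, and another of its probe sets one of 0.16, so the probe sets of this gene disagreed in sign.

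EXOC1 was lower by 0.23 ± 0.10 in 5 of 6 cows (limma unadjusted p = 0.0312), a call that was lost when cow 1, 3, 5 or 6 was left out, with p up to 0.126 and differences as small as -0.15. EXOC5, EXOC6, EXOC7 and EXOC3 had differences of -0.20, -0.17, -0.11 and -0.08. EXOC3L1, a relative of EXOC3 rather than a core subunit, was higher by 0.14 ± 0.06 (unadjusted p = 0.0274), a call lost without cow 2, 4 or 6, with p up to 0.154.

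STX2, a plasma membrane syntaxin, was lower in the former 4× gland of all 6 cows. Its 2× glands read 6.60, 6.40, 6.32, 6.34, 6.52 and 6.41 in cows 1 to 6 and its former 4× glands 6.31, 6.33, 6.14, 5.96, 6.40 and 5.97. Only the former 4× glands of cows 2 and 5 lay above the lowest 2× gland, and the difference was -0.25 ± 0.08 (limma unadjusted p = 0.00791). The other syntaxins of the plasma membrane, STX4 and STX19, had differences of -0.03 and -0.02.

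STX7 was lower in 5 of 6 cows by 0.31 ± 0.11 (limma unadjusted p = 0.0105), close in size to its difference of -0.32 on day 21, and the call was lost without cow 6 (unadjusted p = 0.0568). Its 2× glands lay between 8.74 and 9.38 with a median of 9.04, and its former 4× glands between 8.47 and 8.90 with a median of 8.77. Cow 2 held the lowest 2× gland and was the only cow with a difference above 0. VAMP7 was higher by 0.19 ± 0.09 (unadjusted p = 0.0478) in 4 of 6 cows and was lost without cow 2, 3, 5 or 6, with p up to 0.178. VAMP5 had a difference of -0.34 ± 0.20 (unadjusted p = 0.105), and SNAP23 one of 0.01 ± 0.08.

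RAB12, which sends recycling receptors to the lysosome, was lower in the former 4× gland of all 6 cows on day 40. Its 2× glands read 8.51, 8.07, 8.23, 8.27, 8.00 and 8.26 in cows 1 to 6 and its former 4× glands 7.82, 8.05, 7.83, 8.13, 7.92 and 7.75. Cows 2 and 5 had the smallest differences, the groups overlapped, and the mean was -0.31 ± 0.10 (limma unadjusted p = 0.00569). RAB15, an endosomal RAB of receptor recycling, was lower in all 6 cows by 0.26 ± 0.10 (unadjusted p = 0.0121). Cow 1 had -0.73 and the others -0.27 to -0.10, and without cow 1 the mean was -0.17 (unadjusted p = 0.0659). Its groups overlapped widely, since the signal of RAB15 differed mostly between cows, with an SD of 0.40 between cow means. All 6 arrays of cow 2 read 6.25 to 6.59, and those of cow 3 read 7.06 to 7.69.

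RAB30, a Golgi RAB, was lower by 0.24 ± 0.10 in 5 of 6 cows (limma unadjusted p = 0.0189), and the call was lost without cow 1 or 6, with p up to 0.0653. RAB34 was lower by 0.35 ± 0.16 (unadjusted p = 0.0371) and lost without cow 1, 3 or 6 (p up to 0.140, differences as small as -0.20), and RAB11FIP2 was lower by 0.31 ± 0.14 (unadjusted p = 0.0423) and lost without cow 1, 2, 3 or 5 (p up to 0.200). The second probe set of RAB11FIP2, with a mean signal of 5.91 against 6.37 for the one used, had a difference of 0.19 ± 0.09 on day 40 (unadjusted p = 0.0579), the opposite sign. RAB1A and RAB2A, higher in all 6 cows on day 21, had differences of 0.02 ± 0.10 and -0.01 ± 0.07 on day 40. RAB3GAP2, the partner subunit of RAB3GAP1, was higher by 0.25 ± 0.11 in 5 of 6 cows (unadjusted p = 0.0268) and lost without cow 3 or 4 (p up to 0.119; 0.16 without cow 4). RAB37, a RAB of secretory granules, was higher by 0.20 ± 0.09 (unadjusted p = 0.0302) and lost without cow 1, 4, 5 or 6 (p up to 0.162). The other 7 RABs of regulated secretion were not called.

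**Figure D4:**
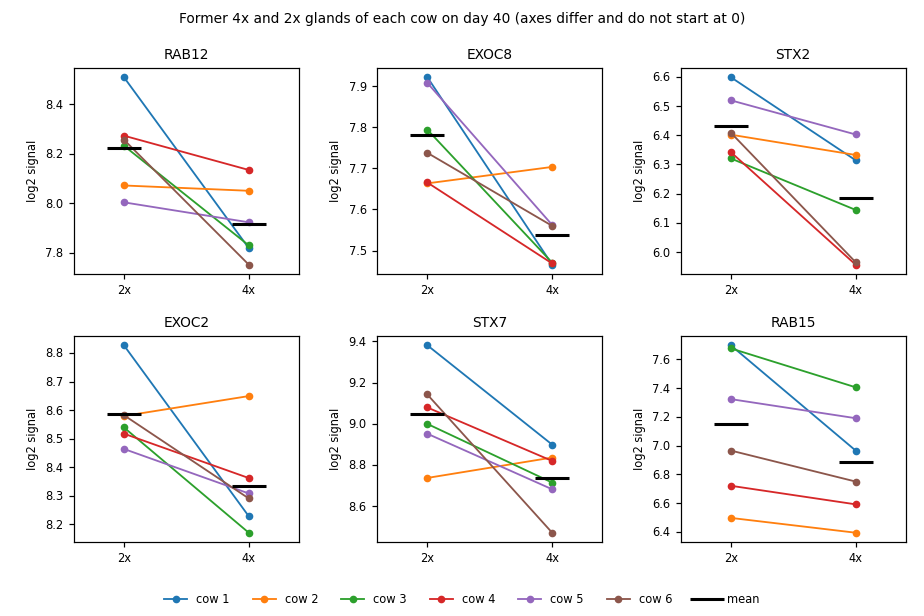
Log2 signal (y axes, each with its own range and not starting at 0) of 6 genes in the 2× and former 4× gland of each cow on day 40, with lines joining the glands of 1 cow and black bars for the means. RAB12, STX2 and RAB15 were lower in the former 4× gland of all 6 cows, EXOC8, EXOC2 and STX7 in 5 of 6, and RAB15 keeps the order of the cows more than that of the glands.

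Across days 21 and 40, both of rear glands, 4 genes were called on both days with the same sign: STX7, RAB34 and RAB11FIP2 below 0 and VAMP7 above 0. They were 4 of the 17 called on day 21 and 4 of the 14 called on day 40, and 3.59% of all genes were called on both days with 1 sign. The second probe set of RAB11FIP2 had the opposite sign on day 40. VAMP7 was the gene called on all 3 days, with differences of 0.29, 0.21 and 0.19. The share of all genes called on all 3 days was not counted. The VAMP7 calls of days 23 and 40 were each kept in 2 of 6 fits with 1 cow left out. Both were lost with arrays scaled to reference genes. The day 40 call was also lost without moderation, with a separate spread per day and with cow as a fixed term, among other settings. In all, 28 of the 70 genes were called on at least 1 day and 42 on none, where 34.4% of all genes were called on at least 1 day.

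The difference moved from day 21 to day 40 at an unadjusted p under 0.05 for 6 of the 70 genes, down for 5 (3.24% of all genes) and up for 1 (2.32%). RAB27B, a granule RAB, moved up by 0.28 ± 0.11 (limma unadjusted p = 0.0146), from -0.14 on day 21 with all 6 cows below 0 to 0.14 on day 40 with 5 of 6 above, a call lost without cow 4 (unadjusted p = 0.0759). RAB3D moved by -0.23 ± 0.09 (unadjusted p = 0.0214), from 0.13 to -0.09, and was lost without cow 1 or 6 (p up to 0.0989). RAB35, an endosomal recycling RAB, moved by -0.23 ± 0.10 (unadjusted p = 0.0319), from above 0 in all 6 cows to below 0 in all 6, and was lost without cow 3 or 4 (p up to 0.0939). RAB11FIP5, an adaptor of RAB11, moved by -0.28, RAB28, a RAB of cilia, by -0.55 and RAB11B by -0.19. The smallest adjusted p by limma with Benjamini-Hochberg adjustment was 0.789. With cow as a fixed term on the 36 arrays, a replicate block, 0 changes were down and 1 was up. Leaving out the day 21 pair of cow 1 gave 5 down and 1 up (2.62% and 2.33% of all genes), but not the same genes. RAB11B, RAB12, RAB30, RAB35 and RAB3D were then down and RAB27B up. The calls of RAB11FIP5 and RAB28 were lost (limma unadjusted p = 0.0881 and 0.0980), and those of RAB12 and RAB30 were gained.

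Within the 2× glands, which were milked alike throughout, 9 of the 70 genes were lower and 7 higher on day 23 than on day 21 (9.90% and 8.07% of all genes). Without the array of cow 1 on day 21 they numbered 2 and 2 (3.89% and 3.47% of all genes): STX7 and VAMP5 lower, RAB26 and VAMP2 higher. STX7 had a mean of 9.13 on day 21 and 8.70 on day 23, a difference of -0.43 ± 0.12 (limma with cow as a block, unadjusted p = 0.00116; -0.36 without that array). RAB26, a RAB of secretory granules, had means of 7.69 and 8.30, a difference of 0.61 ± 0.18 (unadjusted p = 0.00219; 0.34 without that array, unadjusted p = 0.0109). VAMP5 went from 7.79 to 7.09, a difference of -0.70 ± 0.23 (unadjusted p = 0.00436; -0.55 without), and its call was lost when cow 1 or cow 3 was left out on all days (p up to 0.0670). VAMP2, a vesicle SNARE of regulated secretion, had a difference of 0.36 ± 0.14 (unadjusted p = 0.0129; 0.30 without) and was lost without cow 1 (unadjusted p = 0.0702). RAB34 had one of -0.38 ± 0.17, which was -0.20 without that array (unadjusted p = 0.182). These contrasts set rear glands against fore glands.

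Between days 40 and 21, both of rear glands, 2 genes were lower and 2 higher in the 2× glands (2.86% and 4.39% of all genes). They were RAB11FIP2 at -0.36, EXOC5 at -0.31, RAB26 at 0.44 and VAMP7 at 0.23, and without the array of cow 1 all 4 had an unadjusted p of 0.0624 or more. The 1 gene then called was RAB30.

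In the 4× glands 0 of the 70 genes were called lower and 0 higher between days 21 and 23 (1.64% and 2.37% of all genes), and the smallest unadjusted p by limma was that of RAB6A, a Golgi RAB, at 0.0528. Between days 21 and 40, 5 were lower and 2 higher (4.53% and 3.53% of all genes). RAB25 was higher by 0.29 ± 0.10 on day 40 (limma unadjusted p = 0.00646, in 4 of 6 cows), with means of 7.61 on day 21 and 7.90 on day 40. EXOC1 was lower by 0.26 ± 0.10 in all 6 cows (unadjusted p = 0.0148). Both kept an unadjusted p under 0.05 when any 1 cow was left out. EXOC6 was lower by 0.22, EXOC2 by 0.19 and RAB5A, the early endosome RAB, by 0.17, each lost without at least 2 of the cows, with p up to 0.0894, 0.121 and 0.156. No gene of the 70 passed the adjusted p in the 4 comparisons of days, where the smallest by limma with Benjamini-Hochberg adjustment was 0.168, and 0.0437% of all genes passed it between days 21 and 40 in the 4× glands.

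**Figure D5:**
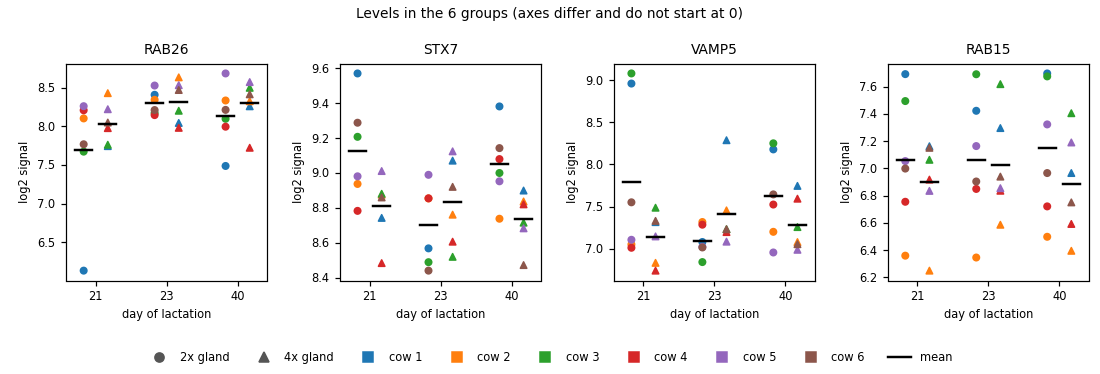
Log2 signal (y axes, each with its own range and not starting at 0) of RAB26, STX7, VAMP5 and RAB15 in the 6 groups by day of lactation, with circles for 2× and triangles for 4× glands, a colour for each cow and black bars for the means. The 2× gland of cow 1 on day 21 is the lowest of all RAB26 values at 6.13, VAMP5 is highest in the 2× glands of cows 1 and 3 on day 21, and RAB15 separates the cows rather than the groups.

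The partners of these genes were counted on 6 lists of related genes, 106 genes in all, of which 11 were lower and 10 higher on day 21 (10.4% and 9.43%), against 9.61% and 8.29% of all genes. Of the lists, 0 of 10 other SNAREs were lower and 2 higher, SEC22B, the vesicle SNARE of ER-to-Golgi traffic, at 0.47 ± 0.16 (limma unadjusted p = 0.00673; 0.26 without the pair of cow 1, unadjusted p = 0.0584) and GOSR2, a Golgi SNARE, at 0.15. Of 16 regulators of SNARE assembly and disassembly 0 were lower and 2 higher, UNC13B, a priming factor for exocytosis, at 0.29 ± 0.08 (unadjusted p = 0.00123; 0.25 without the pair of cow 1, unadjusted p = 0.00723) and STXBP6 at 0.25. Of 28 tethers of the Golgi and endosomes 0 were lower and 4 higher, with GOLGA5, a Golgi coiled-coil tether, at 0.26 ± 0.07 (unadjusted p = 0.00145; 0.21 without, unadjusted p = 0.0105) and TRAPPC2 at 0.19.

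Of 18 RAB effectors and motors 5 were lower and 0 higher, with MLPH, which ties RAB27A to a myosin, at -0.87 ± 0.28 (limma unadjusted p = 0.00551; -0.49 without the pair of cow 1, unadjusted p = 0.0470) and RILPL1 at -0.24. Of 23 genes of the RAB cycle 3 were lower and 1 higher, with RABGAP1L, a RAB GTPase-activating protein, at -0.73 (-0.29 without) and TBC1D5 at -0.29. Of 11 genes of calcium-triggered release 3 were lower and 1 higher, with ANXA2, a calcium-dependent membrane binder, at -0.51 ± 0.17 (unadjusted p = 0.00558; -0.33 without, unadjusted p = 0.0445) and ANXA1 at -0.68. Without the pair of cow 1, each of the 6 lists kept at most 1 call, and the other SNAREs kept 0. Then STXBP6 stood at 0.16, GOSR2 at 0.11 and TRAPPC2 at 0.13, and RILPL1 at -0.14, TBC1D5 at -0.18 and ANXA1 at -0.42.

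On day 23 the 6 lists held 2 genes called lower and 2 called higher (1.89% each), against 1.07% and 1.41% of all genes. Both of the higher ones were tethers. On day 40, 11 of the 106 were lower and 4 higher (10.4% and 3.77%), against 9.51% and 8.90% of all genes. The lower ones were 3 of 18 effectors and motors, 3 of 11 genes of calcium-triggered release, 2 of 16 SNARE regulators, 2 of 23 genes of the RAB cycle and 1 of 28 tethers, and the higher ones were 1 SNARE regulator, 1 gene of the RAB cycle and 2 tethers. Of the marker lists on day 40, 2 of 14 leukocyte genes, 2 of 9 myoepithelial genes and 1 of 7 endothelial genes were lower in the former 4× gland, 2 of 3 adipocyte genes were higher, and of the genes of milk-secreting epithelium and fibroblasts 0 were called. The mean leukocyte signal ranged from 6.83 to 7.37 in the 2× glands and from 6.67 to 7.23 in the former 4× glands, was lower within 5 of 6 cows with differences of -0.24 to 0.13, and its part in the differences of the exocyst genes, STX2, STX7 and RAB12 was not tested.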

How the data were processed

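RNA of 36 mammary biopsies was hybridised to Affymetrix Bovine arrays, and the deposited log2 signals had been background-corrected, quantile-normalised and summarised per probe set by the authors with RMA. Groups, cows and days came from the labels. Of 24128 probe sets, 112 controls were left out, and genes were named from the platform annotation, in which 13318 probe sets had 1 symbol, 86 several and 10724 none. Array medians lay between 6.04 and 6.15. The number of cows limits the precision.

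Within-cow differences (4× minus 2×, 18 pairs) were fitted with a mean for each day in limma 3.58.1 (R 4.3.3) over all 24016 probe sets, with empirical Bayes moderation and Benjamini-Hochberg adjustment. The 3 days of a cow enter as separate pairs. Days were compared within 2× or 4× glands on the 36 arrays with cow as a block. The pairing is by cow, from the labels, and the 4× and 2× arrays of a cow on a day deviated together from their group means in 18 of 18 pairs (r between 0.24 and 0.67 over probe sets). An exact permutation test flipped the signs of the 6 differences of a gene. The fit was tested on simulated data.

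The genes and lists were chosen with earlier results of these data known. Genes described in full were the 10 with the smallest unadjusted p on each day, the 5 in each other comparison, the brightest and dimmest 5, and the SNAREs, exocyst genes and secretion RABs; of each related list, the 2 with the smallest p on day 21. Alternatives were no replicate block, cow as a fixed term, separate spread per day, no or robust moderation, centred or reference-scaled arrays, array weights, no dim probe sets, the second probe set, and leaving out each cow; leaving out the day 21 pair or the 2× array of cow 1 was chosen after the data were seen. No sequences are printed. Figures were drawn with matplotlib.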

Additional observations from a re-analysis of the deposited data

Results flagged for a closer look

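Of 41 within-cow differences checked for a cow far from the other 5, 8 stood out. Chance flags about 1 in 20 independent groups. That rate does not apply to the 41, which were chosen by small p and share arrays within a day. All 8 were of cow 1, and those of day 21 shared its 2× array. On day 21 its difference was -1.59 for RAB34 (other cows -0.49 to -0.08), 1.15 for RAB1A (0.08 to 0.32), 0.79 for SNAP23 (0.02 to 0.20), 0.67 for RAB11A (-0.09 to 0.16), 1.53 for RAB18 (-0.16 to 0.24) and 1.64 for RAB3IP (-0.0035 to 0.21). On day 23 it was 1.21 for VAMP5 (-0.09 to 0.39), and on day 40 it was -0.73 for RAB15 (-0.27 to -0.10).

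For 2 genes every cow had a difference of 1 sign on 1 day and of the other sign on another. How many of all genes did so was not counted, so it cannot be told whether 2 is more than usual. EXOC3L1 had a difference of 0.09 on day 21 and one of -0.09 on day 23, and the shift between them was -0.17 (limma unadjusted p = 0.0542). RAB35 stood at 0.11 on day 21 and at -0.12 on day 40, and its shift was -0.23 (limma unadjusted p = 0.0319, Benjamini-Hochberg adjusted p = 0.789). Neither shift passed the adjusted p.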

How the results depend on the processing

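The median differences of the 70 genes on the 3 days moved by less than the spread between cows under every alternative run. Of the values under alternatives of the single-gene results chosen by the naming rule, 685 kept their direction and side of an unadjusted p of 0.05, 115 lost the call, 12 gained one and 2 reversed, both with a second probe set: SNAP23 at -0.025 on day 21 and EXOC2 at 0.10 on day 40. Outside that choice, the second probe set also had the opposite sign for the day 40 call of RAB11FIP2 (0.19), and for EXOC6 on day 40 it stood at 0.30. No gene of the 70 passed the adjusted p in any of the fits. Genes near background, the spread of 6 cows and the array of cow 1 set the limits, and cross-hybridisation between related RABs was not tested.

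Counts at an unadjusted p under 0.05 are given as lower, then higher. With cow as a fixed replicate block they were 8 and 9 on day 21. With no replicate block they were 4 and 4 on day 21, 0 and 0 on day 23, and 10 and 1 on day 40, 1 change down from day 21 to 23 and 0 down to day 40. In the 2× glands they were then 3 and 3 (day 23) and 0 and 1 (day 40), with 1 higher in the 4× glands on day 40. The fixed block gave 0 changes down to day 40. With separate spread per day, 4 were higher on day 21, 0 lower and 2 higher on day 23, 1 higher on day 40, 3 changed down to day 23 and 4 up to day 40. Without moderation 2 were lower on day 23, and with trend and robust moderation 0 were higher. Centring gave 2 higher on day 40, 9 changes down to day 40, 4 higher in 2× glands on day 23 and 1 higher in 4× glands on day 40. Reference scaling gave 0 and 0 on day 23, 0 higher on day 40 and 0 changes up to day 40. The same fit called 0.448% and 0.677% of all genes on day 23, 3.24% higher on day 40 and 0.426% up to day 40. Array weights gave 5 higher on day 21, 2 lower on day 23, 7 higher on day 40 and 2 changes up to day 40. The second probe set gave 2 lower on day 23. The day 21 pair of cow 1 left out gave 3 and 2 on day 21 and 2 and 3 changes to day 23, and its 2× array left out gave 2 and 2 in the 2× glands on day 23 and 0 and 1 on day 40. The cause was not tested.

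With 1 cow left out in turn, the counts were 3 to 9 lower and 2 to 12 higher on day 21 (fewest without cow 1), 0 to 1 and 0 to 1 on day 23, 6 to 15 and 2 to 5 on day 40, 3 to 9 changes down and 2 to 8 up to day 23, and 2 to 7 down and 1 to 2 up to day 40. They were 1 to 13 and 1 to 9 in the 2× glands on day 23 (fewest without cow 1), 0 to 3 and 1 to 8 on day 40, and 0 to 2 and 0 to 1, then 3 to 8 and 1 to 2, in the 4× glands. The shares of all genes called moved as well. On day 21, 3.70% were lower and 2.86% higher without cow 1, and 11.2% and 9.56% without cow 5. On day 40 the shares were 11.9% and 12.7% without cow 2, and 4.57% and 4.68% without cow 6. For the changes and the comparisons of days such shares were not counted.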
